A study of Homo sapiens with 6 samples.

Results

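The 36 genes described here encode the proteins that bring glucose into the cell, break it down to pyruvate and decide whether pyruvate leaves as lactate or enters the mitochondrion, with PGM1 and GYS1 at the branch to glycogen. They were taken by gene symbol from the deposited table of 63241 genes, and all 36 had a row. The RNA came from T24, an established line of human bladder cancer cells. The siUSP43 cells had been transfected with small interfering RNA against USP43 (genotype label USP43 knockdown, 3 libraries), and the control cells, labelled WT, with the control RNA (siNC, 3 libraries). USP43 is a deubiquitinating enzyme, and the series asked how it bears on lipid metabolism in bladder cancer. All 6 samples carry the same batch label and come from 1 cell line. The labels give neither the time after transfection, nor the duplex sequences, nor whether 1 duplex was used in all 3 siUSP43 samples.

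Glycolysis converts glucose to pyruvate in the cytosol and yields ATP and NADH. Hexokinase, phosphofructokinase and pyruvate kinase catalyse its irreversible steps, and most steps are served by several isozymes that differ in regulation and tissue distribution. Lactate dehydrogenase regenerates NAD+ by reducing pyruvate to lactate, which monocarboxylate transporters export. The mitochondrial pyruvate carrier and the pyruvate dehydrogenase complex open the oxidative route, and the pyruvate dehydrogenase kinases close it by phosphorylating the complex. Many tumour cells keep lactate production high in the presence of oxygen, and many genes of the pathway are known targets of the hypoxia-inducible factors.

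The libraries held 21430574 to 25577200 gene counts. USP43 itself had 1.02, 0.67 and 0.80 FPKM in siUSP43, against 2.36, 2.09 and 2.08 FPKM in siNC, where FPKM is the number of fragments scaled to exon length and to library size. All 3 siUSP43 values lay below all 3 siNC values, with a log2 fold change of -1.40 (SE 0.14, adjusted p = 5.63e-06 by edgeR with Benjamini-Hochberg adjustment). Of 6 epithelial markers 4 reached a mean of 1 FPKM. KRT7 fell (log2 fold change -0.38), at 184 ± 9.01 FPKM in siUSP43 and 236 ± 3.97 FPKM in siNC (SD, n = 3 each), and KRT19 fell by as much (-0.38), while KRT8 (0.12) and KRT18 (0.11) did not pass. EPCAM, below a mean of 1 FPKM, had 1.23, 1.30 and 1.18 FPKM in siUSP43, against 0.48, 0.73 and 0.55 FPKM in siNC. Its log2 fold change was 1.07 in the fit without a filter. CDH1 was listed at 0 in all 3 siUSP43 libraries and at up to 0.02 FPKM in siNC. Of 11 urothelial markers PPARG, which rose (0.50), and FOXA1, which fell (-1.24), reached 1 FPKM. All 4 mesenchymal markers did, of which FN1 fell (-1.48), at 77.7 ± 8.79 FPKM in siUSP43 and 213.5 ± 9.63 FPKM in siNC, and VIM, CDH2 and ZEB1 did not pass. The part of these marker differences in the results was not tested. No fibroblast, leukocyte or endothelial marker did, and their summed levels were 1.22 to 1.29, 0.53 to 0.65 and 0.07 to 0.11 FPKM in siUSP43, against 1.19 to 1.6, 1.01 to 1.29 and 0.14 to 0.24 FPKM in siNC.

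Glucose transport, glycolysis, lactate and pyruvate dehydrogenase genes were mostly lower in siUSP43. Of the 34 members that passed the filter of a mean of 1 FPKM, 24 fell, 1 rose and 9 did not pass the test (edgeR, Benjamini-Hochberg adjusted p under 0.05). Among all 11417 genes tested, 28.1% fell and 28.0% rose. The median log2 fold change was -0.30 over the 34 members and -0.01 over all tested genes. Of the members, 10 fell by at least 0.5 on the log2 scale, as did 10.3% of all tested genes. The siUSP43 and siNC values did not overlap for 26 members, with siUSP43 lower for 24 (29.6% of all tested genes) and higher for 2 (32.5%). TIGAR and PDK4 lay below the filter and are given as levels. In bulk RNA such as this, fewer cells of a kind and less RNA per cell cannot be told apart.

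The 36 members together took 1.99, 2.08 and 1.87% of all gene counts in siUSP43, against 2.46, 2.47 and 2.57% in siNC. GAPDH, ENO1, PGAM1, TPI1, PKM and LDHA made up most of this sum. The largest decreases were in ALDOC (log2 fold change -1.87), PGK1 (-1.08), PFKFB4 (-0.90), PDK2 (-0.88), LDHA (-0.84) and SLC2A1 (-0.83). ALDOC, PFKFB4 and PDK2 stood below 7 FPKM in every library, while PGK1 and LDHA stood above 90 FPKM. PFKL was the member that rose.

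**Figure D1:**
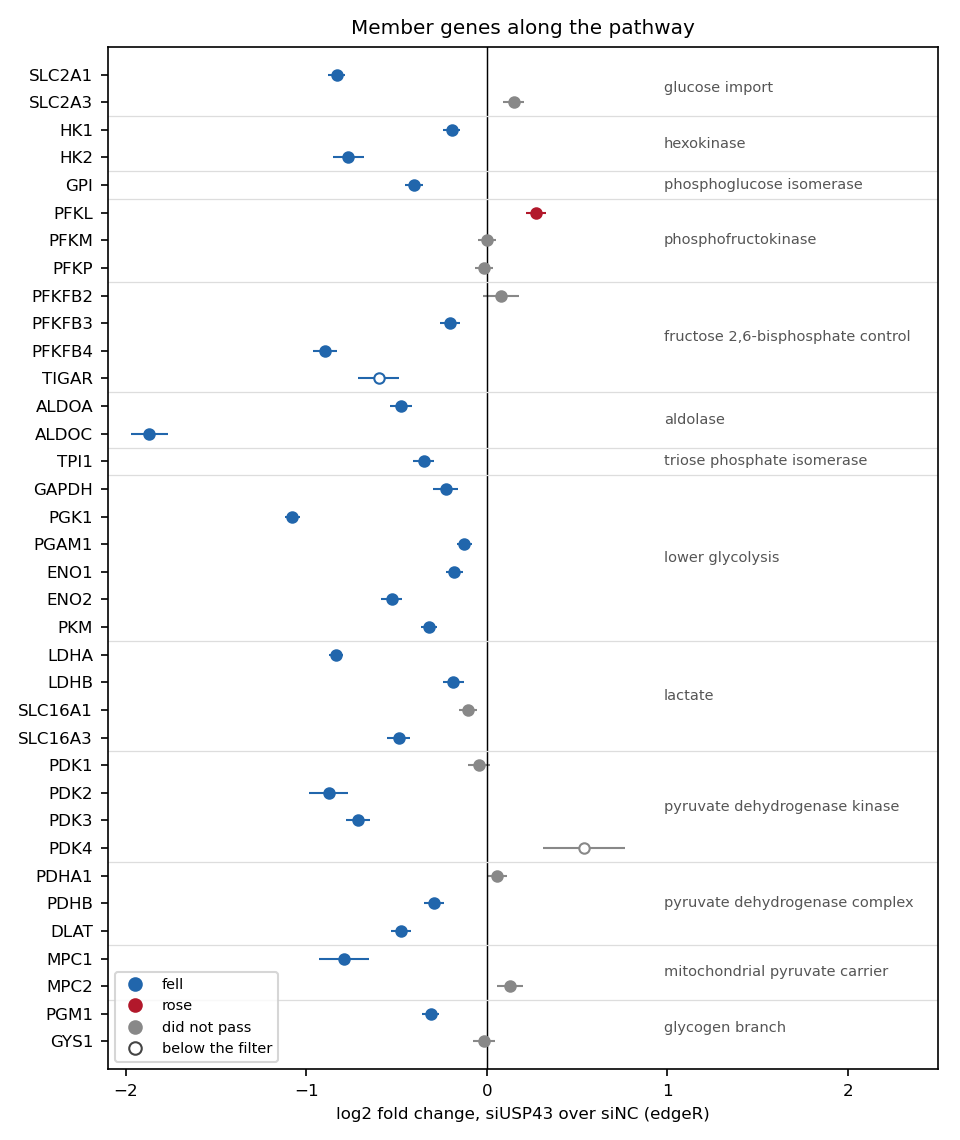
Log2 fold change of each member, siUSP43 over siNC (edgeR, bars are the SE), listed from glucose import at the top to the glycogen branch at the bottom, with the step named at the right. Colours give the call, and open symbols mark TIGAR and PDK4, below the filter and taken from the fit without it; 24 members lie left of 0 with a call, and PFKL is the one called to the right.

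The sequences upstream of 5 members are shown because hypoxia-inducible factors bind a short core, ACGTG, in the promoters of several glycolytic genes. The set was chosen after the values were seen. It holds ALDOC and PGK1, with the largest decreases, LDHA, with the most matches of any member, SLC2A1, which fell without a match, and PFKL, which rose. Each is the 250 bases before the RefSeq start nearest to the gene's start in the deposited table, on GRCh38.p14, 5′ to 3′ on the gene's strand. PGK1 has 1 RefSeq start, which lies inside the longer PGK1 gene of the deposited table. Capitals mark ACGTG on either strand (CACGT is its complement), so that CACGTG counts as 2 overlapping matches.
ALDOC (chr17:28576896-28577145, minus strand): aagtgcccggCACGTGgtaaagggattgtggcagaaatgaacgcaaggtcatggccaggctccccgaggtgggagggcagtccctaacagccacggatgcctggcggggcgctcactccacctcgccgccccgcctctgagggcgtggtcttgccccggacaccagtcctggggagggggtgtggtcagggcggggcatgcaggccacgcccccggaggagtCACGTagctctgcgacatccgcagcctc
PGK1 (chrX:78103998-78104247, plus strand): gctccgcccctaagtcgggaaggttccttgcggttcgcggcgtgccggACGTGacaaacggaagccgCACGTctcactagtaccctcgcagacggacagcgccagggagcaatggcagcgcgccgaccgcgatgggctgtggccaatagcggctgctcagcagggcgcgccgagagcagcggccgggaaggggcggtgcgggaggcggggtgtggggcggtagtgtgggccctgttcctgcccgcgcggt
LDHA (chr11:18394313-18394562, plus strand): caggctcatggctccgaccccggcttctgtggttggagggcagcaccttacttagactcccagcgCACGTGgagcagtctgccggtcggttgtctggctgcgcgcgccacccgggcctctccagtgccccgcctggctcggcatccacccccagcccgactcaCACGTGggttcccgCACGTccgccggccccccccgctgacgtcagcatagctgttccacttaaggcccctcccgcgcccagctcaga
SLC2A1 (chr1:42958869-42959118, minus strand): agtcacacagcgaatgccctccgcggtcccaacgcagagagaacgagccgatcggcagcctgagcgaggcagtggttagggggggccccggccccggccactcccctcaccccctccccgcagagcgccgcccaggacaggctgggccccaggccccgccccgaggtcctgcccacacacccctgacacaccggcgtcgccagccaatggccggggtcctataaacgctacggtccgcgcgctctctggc
PFKL (chr21:44299803-44300052, plus strand): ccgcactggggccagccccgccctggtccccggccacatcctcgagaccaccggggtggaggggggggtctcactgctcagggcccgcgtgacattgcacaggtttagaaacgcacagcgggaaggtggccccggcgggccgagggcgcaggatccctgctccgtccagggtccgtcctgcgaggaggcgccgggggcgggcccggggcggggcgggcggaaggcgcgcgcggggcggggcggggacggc

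ALDOC held 3 matches, PGK1 2 and LDHA 5, while SLC2A1 and PFKL held 0. Of 33 members with a RefSeq promoter, 12 had ACGTG within these 250 bases (36.4%), as did 18.5% of all 35116 promoters in the table. Each member enters by its chosen start alone. The 35116 promoters hold several starts for some genes and were not limited to tested genes. For either core, the shares of members and of all promoters are thus not like for like. ACGTG was found in 11 of the 24 members that fell and in 0 of the 7 tested members that did not. SLC2A3, PFKFB2 and SLC16A1, tested members that did not fall either, had no RefSeq promoter and are missing from these 7. For neither core was such a split by call made over all tested genes, so it has no background share. A link between matches and calls was not tested. The other form of the core, GCGTG, was in 13 of the 33 members (39.4%) and in 32.2% of all promoters. Among these were 10 of the 24 members that fell and 3 of the 7 that did not. CACGTG, which is also the E-box, occurred 2 times in LDHA and 1 time in ALDOC. It was in 4 of the 33 members (12.1%) and in 6.34% of all promoters, again not like for like. A match shows only that the letters are present in the window, and 13 members that fell had no ACGTG there, SLC2A1, PFKFB4 and PDK2 among them.

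At the entry of glucose, the major transporter fell and the minor one did not. SLC2A1 encodes GLUT1, the basal glucose transporter of most cells, and had 12.7, 12.2 and 12.8 FPKM in siUSP43, against 21.4, 22.2 and 22.7 FPKM in siNC. The groups were far apart beside their spread, with a log2 fold change of -0.83 (SE 0.05, edgeR Benjamini-Hochberg adjusted p = 7.76e-08). SLC2A3, the high-affinity transporter GLUT3, had 5.32, 5.52 and 5.89 FPKM in siUSP43, against 5.03, 4.93 and 4.97 FPKM in siNC. Its siUSP43 values all lay above siNC, but the log2 fold change of 0.15 did not pass (edgeR, Benjamini-Hochberg adjusted p = 0.0543), and it passed in 4 of 13 alternatives. SLC2A1 thus made up 69.3 ± 1.04% of the summed FPKM of both genes in siUSP43 and 81.6 ± 0.549% in siNC (SD, n = 3 each), a difference of -12.3 percentage points. With the other glucose transporters in the denominator, among them SLC2A6, the difference was -7.11 points.

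Such isozyme shares were computed for 17 genes, and for 16 of them the values of the groups did not overlap. The exact two-sided permutation test of 3 against 3 then gave p = 0.1, the smallest it can give (0.106 after Benjamini-Hochberg adjustment over the 17), so no share could pass. The shares are therefore given with their spread, and levels are compared between genes only as FPKM, which is per length.

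Both genes of hexokinase, which traps glucose as its 6-phosphate, fell, the minor isozyme by the larger fold. HK2, the inducible form raised in many tumours, had 4.07, 3.44 and 4.53 FPKM in siUSP43, against 6.86, 6.84 and 6.58 FPKM in siNC (log2 fold change -0.77, SE 0.08). HK1, the widely expressed form, had 40.9, 43.8 and 41.5 FPKM in siUSP43, against 47.2, 46.9 and 48.6 FPKM in siNC. Its log2 fold change of -0.19 (SE 0.05) passed as well, with a gap between the groups that was small beside the level. HK2 made up 8.73 ± 1.31% of the pair in siUSP43 and 12.45 ± 0.456% in siNC. HKDC1, a further hexokinase that is no member and was named after its values were seen, lay below the filter at 0.86, 1.18 and 0.92 FPKM in siUSP43, against 0.28, 0.25 and 0.28 FPKM in siNC. GPI, which turns glucose 6-phosphate into fructose 6-phosphate, fell with a log2 fold change of -0.40 (SE 0.05), at 25.7 ± 1.39 FPKM in siUSP43 and 33.6 ± 0.881 FPKM in siNC (SD, n = 3 each).

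Phosphofructokinase, the main control point of the pathway, was the step at which no member fell. PFKL, the liver-type subunit, had 11.5, 11.7 and 10.5 FPKM in siUSP43, against 8.99, 9.09 and 9.53 FPKM in siNC. It rose by a log2 fold change of 0.27 (SE 0.05, edgeR Benjamini-Hochberg adjusted p = 0.00119) and kept its call in all 13 alternatives. PFKP, the platelet-type subunit and the most abundant of the 3, had 38.6, 41.9 and 37.5 FPKM in siUSP43, against 39.1, 38.8 and 40.1 FPKM in siNC. PFKM, the muscle-type subunit, had 13.4, 14.7 and 13.6 FPKM in siUSP43, against 13.9, 13.8 and 13.5 FPKM in siNC. The groups overlapped for both, with log2 fold changes of -0.02 (SE 0.05) and 0.0020 (SE 0.05) that did not pass. PFKL made up 17.4 ± 0.621% of the summed FPKM in siUSP43 and 14.8 ± 0.293% in siNC (SD, n = 3 each).

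The enzymes that set the level of fructose 2,6-bisphosphate, the activator of phosphofructokinase, were lower or did not pass. PFKFB4, which makes and degrades it and is known as a hypoxia-responsive gene, had 3.29, 3.10 and 3.04 FPKM in siUSP43, against 5.67, 6.14 and 5.55 FPKM in siNC (log2 fold change -0.90, SE 0.07). PFKFB3, the isozyme with the highest kinase activity, had 9.09, 9.50 and 10.00 FPKM in siUSP43, against 10.7, 10.9 and 10.9 FPKM in siNC (log2 fold change -0.20, SE 0.05). The decrease of PFKFB4 was thus the larger, and its share of the 3 PFKFB members was 22.9 ± 1.67% in siUSP43 and 32.8 ± 1.08% in siNC. The start of PFKFB4 overlaps UCN2 on the same strand, and how shared reads were counted was not stated, so its level is uncertain. PFKFB2 did not pass, with 0.98, 1.12 and 1.22 FPKM in siUSP43 and 1.08, 1.04 and 0.97 FPKM in siNC. TIGAR, a phosphatase that degrades the activator, had 214, 170 and 199 counts in siUSP43, against 282, 302 and 310 counts in siNC, and the groups did not overlap. At 0.76, 0.71 and 0.70 FPKM in siUSP43, against 1.04, 1.10 and 1.12 FPKM in siNC, it was below the filter, and its log2 fold change in the fit without a filter was -0.60 (SE 0.11).

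**Figure D2:**
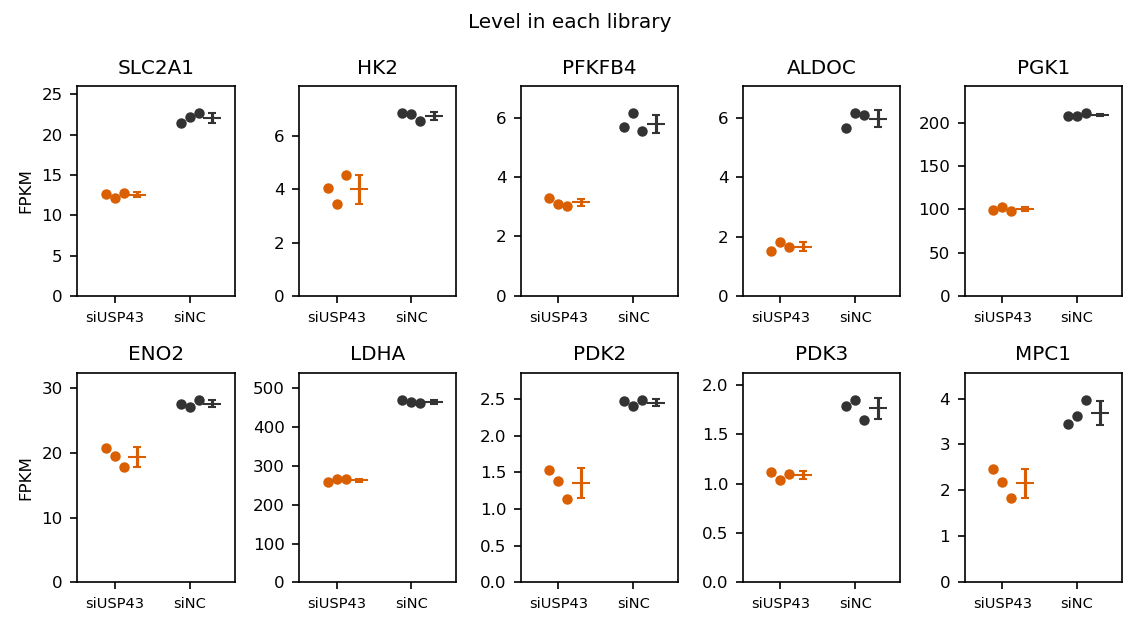
FPKM of each library for the 10 members that fell by at least 0.5 on the log2 scale, siUSP43 at the left of each panel and siNC at the right; dots are libraries and the bar beside them is the mean with its SD (n = 3). In all 10 panels every siUSP43 value lies below every siNC value.

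Aldolase, which splits the hexose bisphosphate, held the largest decrease of all members. ALDOC, the brain-type isozyme, had 118, 120 and 130 counts in siUSP43, against 422, 469 and 467 counts in siNC. As FPKM these were 1.51, 1.82 and 1.65 in siUSP43 and 5.65, 6.15 and 6.11 in siNC, with a log2 fold change of -1.87 (SE 0.10, edgeR Benjamini-Hochberg adjusted p = 5.52e-08). ALDOA, the main isozyme of most tissues, had 31.1, 32.8 and 27.7 FPKM in siUSP43, against 39.9, 42.8 and 43.0 FPKM in siNC (log2 fold change -0.48, SE 0.06). ALDOC made up 5.17 ± 0.498% of the pair in siUSP43 and 12.5 ± 0.0838% in siNC (SD, n = 3 each). Both genes lie on the same strand within longer annotated genes, ALDOA nearly whole within an unnamed row and ALDOC within RSKR. How reads shared by such genes were counted was not given in the sources used here, so the level of each is uncertain. ENO2, which overlaps LRRC23, and LDHA, which overlaps an unnamed row, share sequence on their own strand in the same way. TPI1, which interconverts the triose phosphates, fell with a log2 fold change of -0.35 (SE 0.06), at 310 ± 23.2 FPKM in siUSP43 and 390.0 ± 13.5 FPKM in siNC (SD, n = 3 each).

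All 6 members of lower glycolysis fell, by sizes that differed widely. PGK1 encodes the kinase of the first ATP-yielding step and had 99.4, 103 and 98.4 FPKM in siUSP43, against 208, 208 and 211 FPKM in siNC. The libraries of each group lay within a few FPKM of each other, and the log2 fold change was -1.08 (SE 0.04, edgeR Benjamini-Hochberg adjusted p = 4.86e-09). ENO2, the neuron-type enolase, had 20.8, 19.6 and 17.8 FPKM in siUSP43, against 27.5, 27.1 and 28.2 FPKM in siNC (log2 fold change -0.53, SE 0.06). ENO1, the general enolase, stood at 538, 568 and 515 FPKM in siUSP43, against 592, 597 and 625 FPKM in siNC, with a smaller log2 fold change of -0.18 (SE 0.05). ENO2 was 3.47 ± 0.224% of the enolase sum in siUSP43 and 4.37 ± 0.0669% in siNC (SD, n = 3 each). PKM, which encodes both splice forms of pyruvate kinase M, had 298, 311 and 283 FPKM in siUSP43, against 363, 361 and 376 FPKM in siNC (log2 fold change -0.32, SE 0.05). The table is per gene, so the splice forms were not analysed here.

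GAPDH, the dehydrogenase often used as a reference gene, had 1864, 2014 and 1647 FPKM in siUSP43, against 2053, 2080 and 2261 FPKM in siNC. The groups did not overlap, with siUSP43 replicate 2 closest to siNC. Its log2 fold change of -0.23 (SE 0.07, edgeR Benjamini-Hochberg adjusted p = 0.0136) lost its call without siNC replicate 3 (-0.18, adjusted p = 0.0604). PGAM1, the phosphoglycerate mutase, had 499.9, 505 and 475 FPKM in siUSP43, against 537, 532 and 525 FPKM in siNC. Its log2 fold change of -0.12 (SE 0.04, edgeR Benjamini-Hochberg adjusted p = 0.0216) was the smallest of those called. It was lost under the replicate block (adjusted p = 0.12) and without siUSP43 replicate 1, siNC replicate 1, siNC replicate 2 or siNC replicate 3 (adjusted p = 0.0539 to 0.0821). The table lists 65 GAPDH and 13 PGAM1 pseudogenes by name, with 0.35 and 0.0165% of the parents' counts.

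At the lactate branch, the subunit that favours lactate formation had the larger decrease. LDHA had 259, 265 and 266 FPKM in siUSP43, against 470, 463 and 461 FPKM in siNC. The log2 fold change was -0.84 (SE 0.04, edgeR Benjamini-Hochberg adjusted p = 1.49e-08). LDHB, whose tetramer favours the return of lactate to pyruvate, had 131, 138 and 117 FPKM in siUSP43, against 143, 142 and 149.8 FPKM in siNC. Its log2 fold change of -0.18 (SE 0.06, edgeR Benjamini-Hochberg adjusted p = 0.0207) lost its call in 4 of 13 alternatives, among them without siUSP43 replicate 1 (adjusted p = 0.0515) and without siNC replicate 3 (adjusted p = 0.0786), and was -0.12 without siUSP43 replicate 3. LDHB made up 32.9 ± 2.02% of the summed FPKM in siUSP43 and 23.8 ± 0.659% in siNC (SD, n = 3 each). The 4 lactate members together summed to 451 ± 10.7 FPKM in siUSP43 and 680.4 ± 3.19 FPKM in siNC.

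Of the lactate transporters, SLC16A3 (MCT4), the exporter of glycolytic cells, had 29.1, 29.7 and 25.4 FPKM in siUSP43, against 36.9, 39.4 and 40.4 FPKM in siNC (log2 fold change -0.49, SE 0.06). SLC16A1 (MCT1), which carries lactate in both directions, had 31.1, 28.5 and 31.8 FPKM in siUSP43, against 33.4, 32.7 and 30.95 FPKM in siNC. The groups overlapped and the log2 fold change of -0.10 did not pass. Without siUSP43 replicate 3 it passed (-0.14, edgeR Benjamini-Hochberg adjusted p = 0.0204), and without siUSP43 replicate 2 it was -0.06 (adjusted p = 0.313). SLC16A3 made up 47.9 ± 3.36% of the pair in siUSP43 and 54.6 ± 2.07% in siNC (SD, n = 3 each). SLC16A3 overlaps CSNK1D on the other strand and an unnamed row on its own strand. Neither strand use nor the handling of shared reads in the counting was stated, so its level is uncertain. BSG, the chaperone of both transporters, was at 71.7 ± 3.62 FPKM in siUSP43 and 77.0 ± 4.29 FPKM in siNC and did not pass.

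**Figure D3:**
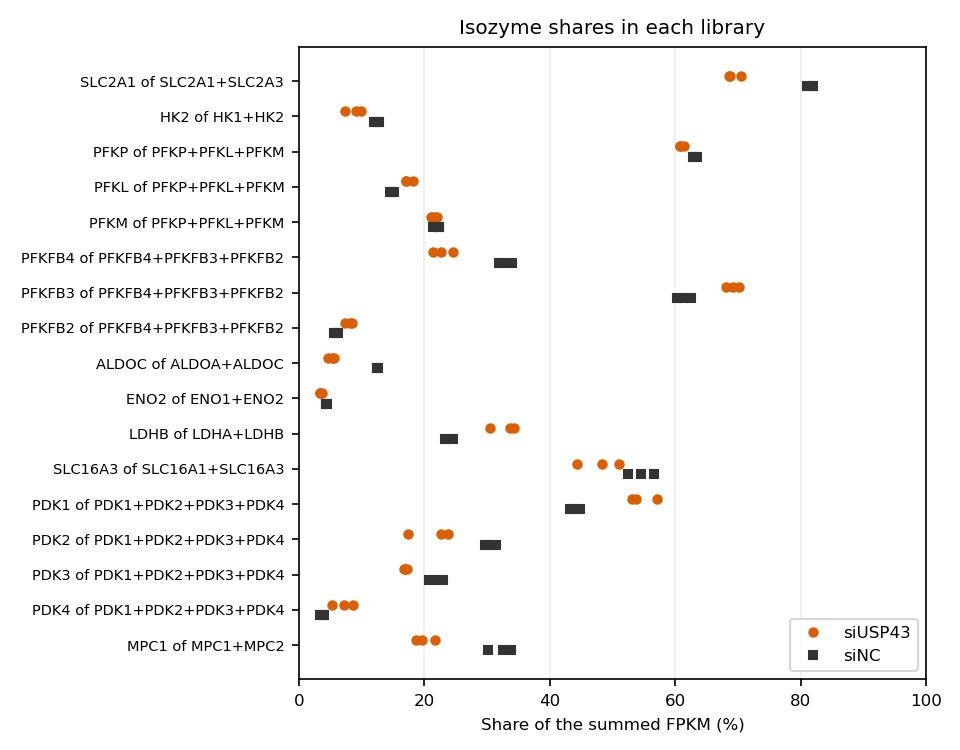
Share of the summed FPKM taken by each of 17 isozymes or subunits in every library, siUSP43 as circles above siNC as squares. The groups overlap only for PFKM; the SLC2A1 and MPC1 shares lie about 12 percentage points lower in siUSP43 (for SLC2A1, -7.11 with the other transporters in the denominator), while the PDK1 and LDHB shares lie higher.

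The kinases that inactivate pyruvate dehydrogenase split. PDK2 had 1.54, 1.39 and 1.14 FPKM in siUSP43, against 2.47, 2.40 and 2.49 FPKM in siNC, a log2 fold change of -0.88 (SE 0.11). PDK3 had 1.12, 1.04 and 1.10 FPKM in siUSP43, against 1.79, 1.85 and 1.65 FPKM in siNC, a log2 fold change of -0.71 (SE 0.07). Both still passed in limma's fit to log2(FPKM + 1), at -0.55 and -0.40, since adding 1 shrinks the fold change of genes this low. PDK1, the isozyme induced by hypoxia in many cells, had 3.48, 3.25 and 3.74 FPKM in siUSP43, against 3.70, 3.49 and 3.48 FPKM in siNC. The groups overlapped, the log2 fold change of -0.04 (SE 0.06) did not pass, and PDK1 made up 54.6 ± 2.15% of the kinase sum in siUSP43 and 44.0 ± 0.836% in siNC (SD, n = 3 each). PDK4, the fasting-induced isozyme, was below the filter with 46, 51 and 78 counts in siUSP43, against 37, 44 and 41 counts in siNC.

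Of the pyruvate dehydrogenase complex, PDHA1, the alpha subunit that the kinases phosphorylate, overlapped between the groups at 23.9, 26.5 and 23.6 FPKM in siUSP43, against 24.1, 22.7 and 23.4 FPKM in siNC, and did not pass. PDHB, the beta subunit of the same component, had 10.3 ± 0.254 FPKM in siUSP43 and 12.5 ± 0.458 FPKM in siNC (log2 fold change -0.29, SE 0.06; SD, n = 3 each). DLAT, the acetyltransferase core, had 5.07, 5.26 and 5.58 FPKM in siUSP43, against 7.42, 7.38 and 7.08 FPKM in siNC (log2 fold change -0.48, SE 0.06). The mitochondrial pyruvate carrier is a complex of MPC1 and MPC2, which need each other for stability. MPC1 had 2.46, 2.18 and 1.83 FPKM in siUSP43, against 3.45, 3.63 and 3.97 FPKM in siNC, from 85 to 179 counts a library (log2 fold change -0.79, SE 0.14, edgeR Benjamini-Hochberg adjusted p = 0.000523). MPC2 had 8.86, 8.93 and 7.94 FPKM in siUSP43, against 7.97, 7.52 and 7.75 FPKM in siNC, and its log2 fold change of 0.13 did not pass, except without siUSP43 replicate 3 (0.18, adjusted p = 0.0295). MPC1 thus stood at 20.0 ± 1.54% of the pair in siUSP43 and 32.2 ± 1.86% in siNC (SD, n = 3 each).

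At the branch to glycogen, PGM1, which interconverts glucose 6-phosphate and glucose 1-phosphate, had 15.4, 15.2 and 15.8 FPKM in siUSP43, against 19.3, 19.1 and 18.6 FPKM in siNC (log2 fold change -0.31, SE 0.05). GYS1, the muscle-type glycogen synthase, had 11.1, 10.5 and 9.70 FPKM in siUSP43, against 10.2, 10.6 and 10.5 FPKM in siNC. Its groups overlapped and the log2 fold change of -0.01 did not pass.

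Where a step had isozymes of very unequal level, the one of lower level had the larger decrease for hexokinase (HK2), aldolase (ALDOC) and enolase (ENO2). For glucose import and lactate dehydrogenase it was the one of higher level, SLC2A1 and LDHA. Apart from the shares given above, these differences between isozymes were not tested. Within siUSP43, replicate 3 had the lowest FPKM for 20 of the 34 tested members (40.4% of all tested genes), and replicate 2 the highest for 18 (33.8% of all tested genes). GAPDH, TPI1, PKM, ENO1, PGAM1 and ALDOA all had this order, while HK2, SLC2A1 and LDHA had their lowest value in another library. The part of this library order in the results was not tested beyond the fits that leave out each library.

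The calls were also set beside 7-mers in 3′ UTRs, because an earlier analysis of these same fold changes had found GGATCCA and GATCCAA often in genes that fell. In GENCODE release 29 transcripts, 1069 tested genes carried such a site, and 45.1% of them fell, against 27.8% of the 8968 genes without. Because the 7-mers were picked from these same fold changes, this contrast was built into their choice and is not independent evidence. SLC2A1, LDHA and DLAT, which fell, carried 1 site each, and PDK1, which did not pass, carried 3. Of the 30 members without a site 21 fell and 1 rose, with a median log2 fold change of -0.26. The part of these sites in the decreases of SLC2A1, LDHA and DLAT was not tested.

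Other genes of the pathway moved in both directions, as did the tested genes at large. Of 97 such genes listed, 58 were tested, of which 16 rose, 21 fell and 21 did not pass, with a median log2 fold change of -0.05. Of all 11417 genes tested, 28.0% rose and 28.1% fell, and the counts of each list below stand beside these shares. Of 4 tested further glucose transporters, SLC2A6, an intracellular transporter, fell and 0 rose, at 6.70 ± 0.912 FPKM in siUSP43 and 12.6 ± 0.774 FPKM in siNC (log2 fold change -0.93). Of 7 further isozymes and steps, EMB, a transporter chaperone, rose (0.39) and 0 fell. Of 8 further genes of pyruvate dehydrogenase and its control, 3 rose and 2 fell. CS, citrate synthase, which takes up the acetyl-CoA, was at 48.1 ± 0.792 FPKM in siUSP43 and 31.9 ± 0.416 FPKM in siNC (0.57), PDHX, which anchors the E3 component, at 7.79 ± 0.301 FPKM in siUSP43 and 12.8 ± 0.63 FPKM in siNC (-0.73), and PDPR, a regulator of the activating phosphatase, had -0.54 (SD, n = 3 each). Of the 2 tested gluconeogenesis genes PCK2 rose (0.34) and G6PC3 fell (-0.35).

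The pentose phosphate branch, which draws glucose 6-phosphate off to NADPH and ribose, held 3 that rose and 3 that fell of 8 tested. PGD, an NADPH-yielding dehydrogenase of the branch, fell (-0.55), at 39.99 ± 1.81 FPKM in siUSP43 and 58.0 ± 1.08 FPKM in siNC (SD, n = 3 each). H6PD, an enzyme of the endoplasmic reticulum, rose (0.40). Of 11 glycogen genes 4 rose and 4 fell, with PGM2L1 at 0.43, PYGB, brain glycogen phosphorylase, at -0.38 and GYG1, glycogenin, at 0.36.

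Of 10 genes of other branches and NADH shuttles 2 rose and 5 fell. GFPT1, the entry enzyme of the hexosamine branch, had 16.5, 15.3 and 17.1 FPKM in siUSP43, against 7.75, 7.73 and 7.40 FPKM in siNC, a log2 fold change of 1.08 (SE 0.05). Its paralog GFPT2 went the other way, with 9.20, 9.04 and 9.93 FPKM in siUSP43, against 16.0, 15.3 and 15.5 FPKM in siNC (-0.75, SE 0.05). AKR1B1, the aldose reductase of the polyol branch, fell (-0.85). Of 8 regulators 2 rose and 5 fell. HIF1A encodes an oxygen-regulated subunit of the hypoxia-inducible factors, whose protein was not analysed here. It had 41.0, 39.3 and 46.5 FPKM in siUSP43, against 59.8, 59.5 and 52.8 FPKM in siNC (-0.46, SE 0.07). EPAS1, a related subunit, rose (0.34), at 18.4 ± 1.09 FPKM in siUSP43 and 14.4 ± 0.167 FPKM in siNC. Their partner ARNT rose (0.58). TXNIP, an inhibitor of glucose uptake that is itself induced by glucose, fell (-0.65), at 58.0 ± 2.27 FPKM in siUSP43 and 89.98 ± 2.69 FPKM in siNC (SD, n = 3 each). MYC did not pass (0.09).

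**Figure D4:**
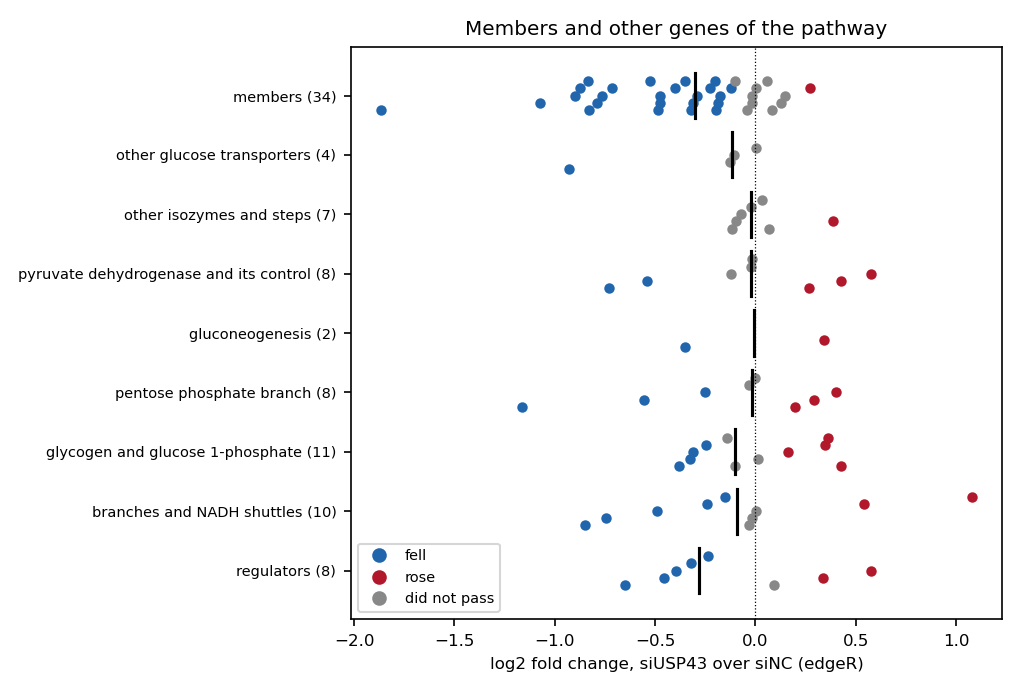
Log2 fold change, siUSP43 over siNC (edgeR), of the 34 tested members and of the tested genes in 8 further lists, with the number tested in brackets; each dot is a gene coloured by its call and the black bar is the median. The member median is -0.30, while the lists of other pathway genes have medians between -0.28 (regulators) and -0.0051 (gluconeogenesis).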

How the data were processed

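RNA sequencing of 6 samples (3 siUSP43, 3 siNC) was analysed from 1 table. RNA was isolated with TRIzol, per the labels' protocols. The submitters' processing notes name cutadapt 2.6, HISAT2 2.2.1 and GRCh38. The counter, the annotation and the handling of strand and shared reads are not given in the sources used here. Per the file headers, the authors deposited raw counts per gene and FPKM, whose scaling implies totals 1.18 to 1.19 times larger than the gene counts sum to.

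The counts of genes whose mean FPKM reached 1 were tested with edgeR 4.0.16 in R 4.3.3 (quasi-likelihood, TMM, group alone, Benjamini-Hochberg over 11417 genes, two-sided, threshold 0.05). Fold changes are siUSP43 over siNC. Isozyme shares used the deposited FPKM and exact permutation tests. Alternatives were RLE or no composition scaling, no filter, DESeq2 1.42.0, limma 3.58.1 on log2(FPKM + 1) and log2(FPKM + 0.1), a replicate block, and leaving out each library. The tests were checked on simulated data. The median member count in a library was 2498. The members, lists and tests were chosen with earlier results of these data known. All members are accounted for. Per-library values were given for members that changed by at least 0.5 (log2) and for isozyme sets. At most 3 changed genes were named per further list, with EPAS1 added among the regulators. Whether replicates are separate cultures is not in the labels, so the p-values cover the spread among these 6 samples alone, and that spread may be technical. Promoters came from RefSeq (33 of 36 members matched).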

Additional observations from a re-analysis of the deposited data

How the results depend on the processing

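Of the 25 members that changed, 22 kept their call and direction in all 13 alternatives, and GAPDH, PGAM1 and LDHB lost it in at least 1. The count of members that fell was 23 to 25 under the alternatives that kept all libraries and 21 to 25 when each library was left out. With all libraries, the 25 came from the fit without a filter, which covered 36 members in place of 34 and added TIGAR. The count that rose was 2 in place of 1 under library totals alone and under both limma fits, SLC2A3 being the addition, and 1 to 2 when each library was left out. Signs changed for 4 members that did not pass. Leaving out each library gave log2 fold changes of -0.040 to 0.030 for PFKM, -0.065 to 0.018 for PFKP, -0.095 to 0.0056 for PDK1 and -0.059 to 0.037 for GYS1, which was also 0.00045 and 0.00033 under limma with 1 and 0.1 added; the cause was not tested. With further transporters in the denominator the SLC2A1 share differed by -7.11 percentage points in place of -12.3. With a replicate block, 2775 genes rose and 2841 fell, and among the members the call of PGAM1 alone was lost (adjusted p = 0.12). Same-numbered libraries did not deviate together (correlations -0.03, -0.14 and -0.30), so the numbers were not taken as pairs. Depth limits MPC1, PDK4 and ALDOC most, with as few as 85, 37 and 118 counts in a library.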
